A study of Homo sapiens with 6 samples.

Results

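Transcripts of 35 genes were examined in human fibroblasts with an induced Ras oncogene, depleted of the long noncoding RNA sin-lncRNA. These genes serve the tricarboxylic acid (TCA) cycle, the reactions that refill it and the control of pyruvate entry. The genes were taken by name from a table of 57819 genes: enzymes of the cycle other than the 2-oxoacid dehydrogenases, pyruvate carboxylase and related anaplerotic enzymes, malic enzymes, glutamate and aspartate enzymes, the kinases and phosphatases of pyruvate dehydrogenase (PDH), and the mitochondrial pyruvate carrier. All 35 names were found, and 34 had enough reads to be tested. PDK4 did not.

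The cells were IMR90 ER:Ras, an established line of human lung fibroblasts carrying a Ras oncogene joined to an estrogen receptor domain, so that 4-hydroxytamoxifen (4OHT) switches Ras on. All 6 libraries came from cells given 200 nM 4OHT for 3 days, and no library without 4OHT was among them. The control group received a scrambled siRNA (siSCR, n = 3) and the other an siRNA against sin-lncRNA (sin-lncRNA KD, n = 3). The line is a single fibroblast strain, and the labels do not say whether replicates were separate cultures, so p-values measure the spread between these libraries, which may be technical. The series was designed to examine the function of sin-lncRNA in senescence. Whether the cells were senescent after 3 days of 4OHT was not tested here.

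Reads in genes ranged from 30271192 to 50913672 per control library and from 22117324 to 27882280 per knockdown library, with no overlap in depth between the groups. After thinning all libraries to 22117324 reads, 22 of the 34 genes were called, as many as at full depth. Over all 19048 genes tested, fewer were called after thinning, 7278 against 7805 at full depth. Levels are given in RPM, the reads of a gene per 1000000 reads of its library. The targeted lncRNA, listed under its ID ENSG00000234693.1, stood at 3.70, 4.73 and 4.09 RPM in controls and 0.493, 0.640 and 0.534 in knockdowns, a log2 fold change of -2.86. Defining fibroblast markers were abundant in both groups: 9 of 9 were found, and their summed level was 40133 to 41957 RPM in controls and 40161 to 41615 in knockdowns. FN1 made up most of this sum, with means of 25152 RPM in controls and 29811 in knockdowns, so the sum says little about the other markers. Single markers moved in both directions, with 4 called higher and 5 lower. They ran from 54.4% of control for COL1A1 to 160% for LUM, with COL1A2 at 58.7% and PDGFRB at 64.9%. Markers of other cell types were low. The 6 immune markers summed to 0.166 to 0.318 RPM in controls and 0.342 to 0.570 in knockdowns, the 6 epithelial markers to 4.20 to 6.67 and 2.02 to 2.74, and the 4 endothelial markers found to 6.99 to 7.90 and 7.91 to 8.84. At or under 3 reads in every library were 4 of the immune, 4 of the epithelial and 1 of the endothelial markers. Of 12 cycling and senescence markers, 6 were called lower and 2 higher, where 23.5% of all genes tested were called lower and 17.5% higher. The log2 fold changes of the lower ones were -0.43 for MKI67, -0.49 for TOP2A, -0.56 for CCNB1, -0.40 for CCNA2, -0.56 for MCM2 and -0.59 for the senescence marker CDKN2A, with overlapping groups for MKI67, CCNA2 and CDKN2A. CDKN1A (0.90) and GLB1 (0.47) were higher, and CDK1, PCNA, CDKN2B and LMNB1 were not called. The part of these markers in the results below was not tested. In RNA from whole cultures, fewer cells of a kind and less RNA per cell cannot be told apart.

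The TCA cycle oxidizes acetyl groups in mitochondria, passing electrons to NAD and, at succinate dehydrogenase, to the respiratory chain. Intermediates drawn off for biosynthesis are replaced by anaplerosis, mainly from pyruvate through pyruvate carboxylase and from glutamine through glutamate. Pyruvate enters mitochondria through the MPC1 and MPC2 carrier and is turned into acetyl-CoA by PDH, which PDH kinases (PDKs) switch off by phosphorylation and PDH phosphatases (PDPs) switch back on. In oncogene-induced senescence, increased pyruvate oxidation with lower PDK1 and higher PDP2 has been described in fibroblasts.

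Most of these transcripts were slightly less abundant after knockdown. Of the 34 tested genes 21 were called lower and 1 higher (limma, Benjamini-Hochberg adjusted p under 0.05 over all 19048 genes tested), and 12 were not called. In all genes tested 41.0% were called, 23.5% lower and 17.5% higher. Among protein-coding genes 26.4% were called lower and 22.2% higher. The shares for the metabolic genes were 61.8% lower and 2.94% higher. Their median log2 fold change was -0.18, against -0.04 for all genes tested, and single values ran from -0.64 (PDK2) to 0.41 (PDP1). The genes called lower kept between 64.0% and 90.8% of their control level, so the falls were modest. All 3 knockdown libraries lay outside the range of the controls for 25 of the 34 genes, 24 of them below, where 51.1% of all genes tested showed such a separation. The exact two-sided permutation test over libraries gave p = 0.1 for each of the 22 called genes, the smallest that 3 libraries against 3 allow.

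The shift was shared by the knockdown libraries. Relative to the control mean, the median of the 34 genes was -0.18, -0.20 and -0.19 on the log2 scale in knockdown replicates 1, 2 and 3, with 28, 29 and 29 genes below it. The same median was -0.011, -0.015 and 0.031 in control replicates 1, 2 and 3, with 21, 22 and 4 genes below. Over all genes tested the medians were -0.043, -0.033 and -0.024 in the knockdown libraries and -0.0034, -0.0033 and 0.014 in the controls. Of the 34 genes, 26 genes were below the control mean in all 3 knockdown libraries, a count that was not made over all genes. The log2 fold change was negative for 29 of the 34 genes and for 10497 of all 19048 genes tested. Summed over all 35 genes, the level was 2141, 2145 and 2195 RPM in control replicates 1 to 3 and 1915, 1864 and 1890.3 in knockdown replicates 1 to 3. This is a difference of -12.5%, and no knockdown library reached the lowest control. Control libraries were close to each other, with a coefficient of variation between 0.754% and 20.7% (median 3.60%) over the tested genes, the highest being that of SDHAF1, a gene with few reads.

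**Figure D1:**
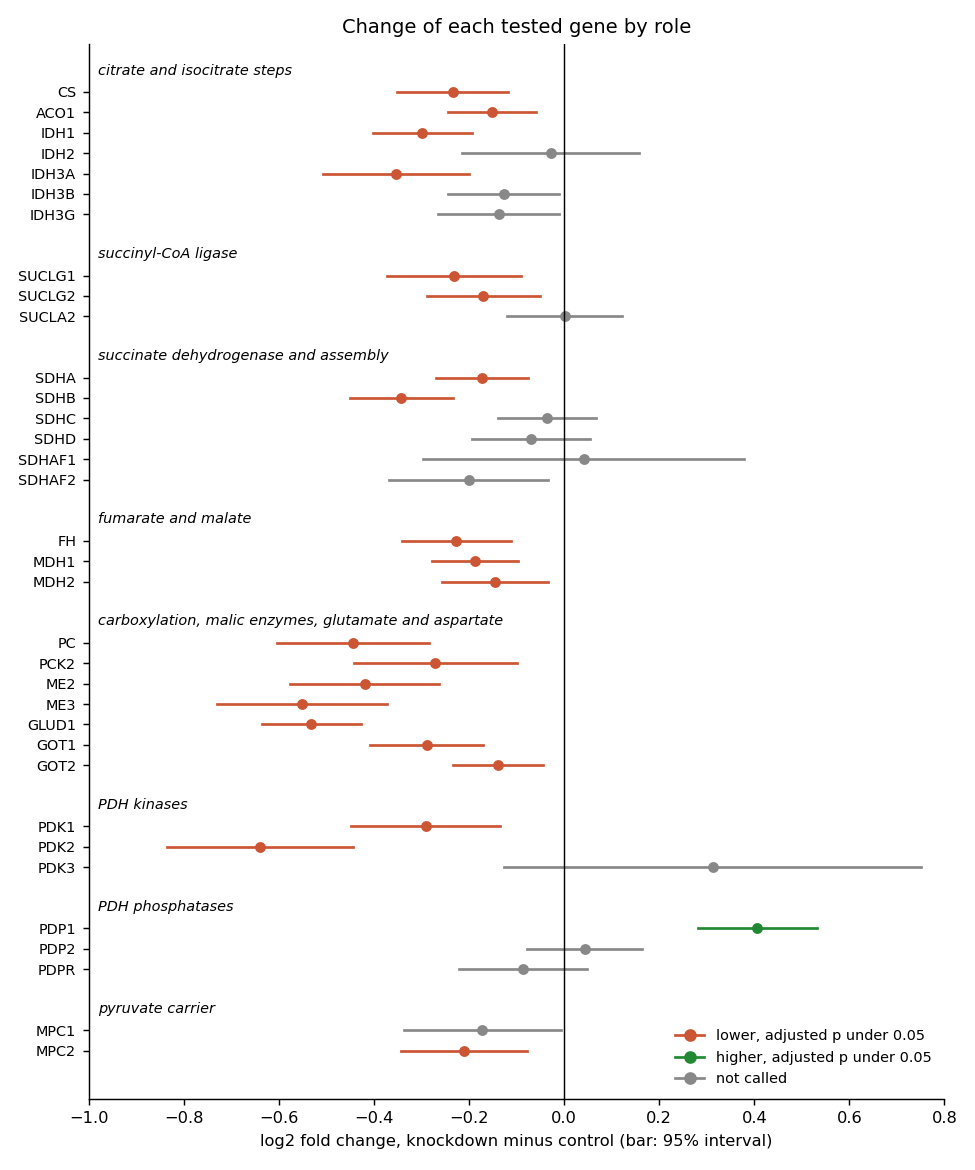
Log2 fold change (knockdown minus control) of the 34 tested genes, grouped by role. Points are estimates from limma over 3 libraries per group and bars 95% intervals; the 21 genes called lower and PDP1, called higher, are coloured, and all 7 anaplerotic, malate, glutamate and aspartate enzymes lie left of 0.

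**Figure D2:**
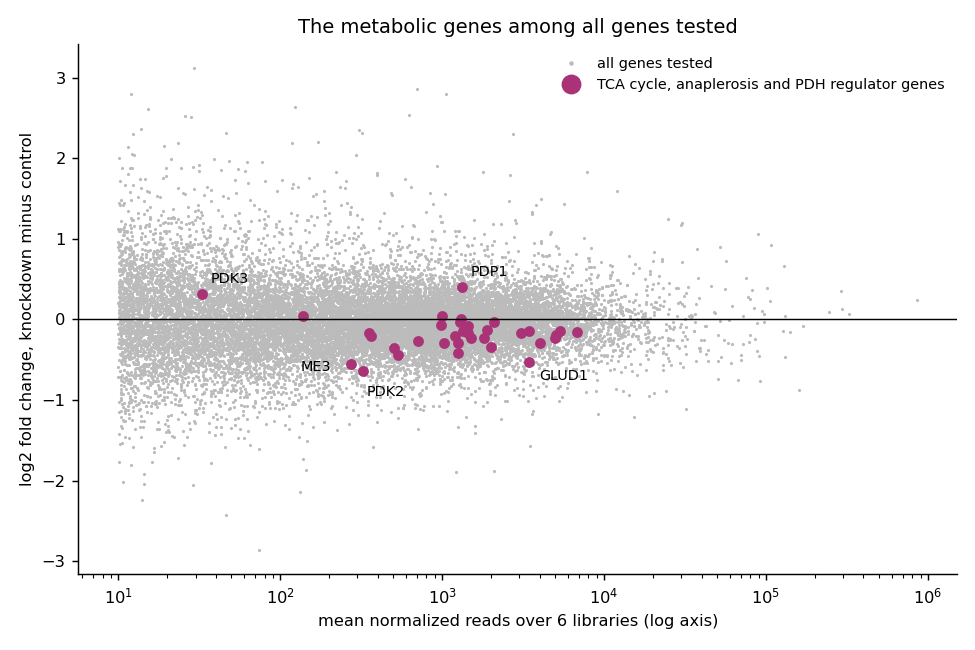
Log2 fold change against mean normalized reads (log axis) for the 19048 genes tested, with the 34 metabolic genes as large points. Most lie below 0, inside the grey cloud of all genes, with PDK2 at -0.64 and PDP1 at 0.41 as the extremes.

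Promoter sequence is shown for the 4 genes with the largest falls among those with a single listed start (GLUD1, ME2, IDH3A and SDHB) and for SUCLA2, the gene that differed least between the groups. Sequences are the 250 bases before the start listed by RefSeq (GRCh38.p14), 5′ to 3′ on the gene's strand, and the capitals mark motif matches. They lie at chr10:87094844-87095093 on the minus strand, chr18:50878868-50879117 on the plus strand, chr15:78149112-78149361 on the plus strand, chr1:17054033-17054282 on the minus strand and chr13:48001274-48001523 on the minus strand.
GLUD1: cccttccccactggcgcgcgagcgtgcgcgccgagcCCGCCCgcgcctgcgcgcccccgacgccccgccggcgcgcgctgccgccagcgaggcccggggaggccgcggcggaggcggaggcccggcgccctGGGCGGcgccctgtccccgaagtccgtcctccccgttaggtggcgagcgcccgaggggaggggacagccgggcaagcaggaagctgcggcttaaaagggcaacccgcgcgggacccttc
ME2: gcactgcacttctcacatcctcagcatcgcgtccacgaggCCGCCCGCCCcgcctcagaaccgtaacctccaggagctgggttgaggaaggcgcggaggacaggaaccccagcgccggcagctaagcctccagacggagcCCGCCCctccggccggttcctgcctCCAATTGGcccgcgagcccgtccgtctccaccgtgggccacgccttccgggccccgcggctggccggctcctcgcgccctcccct
IDH3A: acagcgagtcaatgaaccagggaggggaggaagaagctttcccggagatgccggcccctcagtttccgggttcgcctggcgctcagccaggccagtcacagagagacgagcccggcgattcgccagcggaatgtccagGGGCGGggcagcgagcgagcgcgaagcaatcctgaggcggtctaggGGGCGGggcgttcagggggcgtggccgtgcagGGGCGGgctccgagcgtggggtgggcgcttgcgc
SDHB: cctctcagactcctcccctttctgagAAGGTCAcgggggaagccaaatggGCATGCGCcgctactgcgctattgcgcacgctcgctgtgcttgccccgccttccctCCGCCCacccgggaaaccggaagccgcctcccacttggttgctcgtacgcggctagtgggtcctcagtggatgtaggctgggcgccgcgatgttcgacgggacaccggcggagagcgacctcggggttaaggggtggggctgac
SUCLA2: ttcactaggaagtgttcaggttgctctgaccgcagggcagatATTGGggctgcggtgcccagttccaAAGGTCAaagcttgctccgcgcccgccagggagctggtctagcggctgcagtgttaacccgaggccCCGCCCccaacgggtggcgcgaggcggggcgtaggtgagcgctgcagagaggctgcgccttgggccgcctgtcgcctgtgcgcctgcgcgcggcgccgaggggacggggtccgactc
All 5 windows were rich in G and C, from 66.4% in SDHB to 80.4% in GLUD1, and held between 24 and 41 CpG dinucleotides. The motifs searched on both strands were GCATGCGC (nuclear respiratory factor 1), CCGGAAGT (ETS factors such as GABPA), AAGGTCA (the estrogen-related receptor, ERR), TGACGTCA (CRE), CACGTG (E-box), CCAAT and GGGCGG (GC box). The GC box was found in all 5 windows. SDHB also held the nuclear respiratory factor 1 motif, starting 200 bases before the start, and the ERR motif, starting 224 bases before it. SUCLA2 held the ERR motif too, 183 bases before its start. In ME2, 2 matches to CCAAT on opposite strands overlap, as do 2 of its GC box matches.

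Over the 45 listed starts of the 33 genes found in the RefSeq table, GC boxes were in 64.4% of windows, against 42.6% of all 35116 windows and 62.0% of the 14820 windows of genes tested here. CCAAT was in 46.7%, against 32.0% and 32.7%. The nuclear respiratory factor 1 motif was in 6.67% (SDHAF2, SDHB and SDHD), against 2.63% and 4.02%, and the ETS motif in 8.89% (IDH3B, MDH2, SDHAF2 and SDHD), against 3.42% and 5.75%. The ERR motif was in 4.44%, against 3.44% and 2.47%, and the E-box in 11.1% (ME3, PDK2, PDP2 and PDPR), against 6.34% and 8.04%. The CRE was in 0 of the 45 windows, against 1.65% and 2.45%. Genes with a motif included both called and uncalled ones: SDHB fell and SDHD was not called. A match is a description of the letters only.

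The carboxylating, malate, glutamate and aspartate enzymes among the 35 genes were called lower in 7 of 7, with a median log2 fold change of -0.42. Over all genes tested 23.5% were called lower. Together the 7 genes summed to 382, 385 and 397 RPM in controls and 317, 296 and 303 in knockdowns. The malic enzyme ME1, outside the 35 genes, went the other way and was named after its value was seen. It was called higher, at 60.3 RPM in controls and 69.4 in knockdowns (log2 fold change 0.20, SE 0.047, limma adjusted p 0.0056). GLUD1 (ENSG00000148672.7, chromosome 10, 88810243 to 88854623, in the hg19 coordinates of the table) encodes mitochondrial glutamate dehydrogenase, which turns glutamate into 2-oxoglutarate. Its level was 125, 129 and 132 RPM in control replicates 1 to 3 and 92.8, 85.4 and 89.2 in knockdown replicates 1 to 3. All knockdown libraries were well below all controls, with 69.2% of the control mean remaining (log2 fold change -0.53, SE 0.047, limma adjusted p 9.7e-06). The aspartate aminotransferases exchange amino groups between glutamate and oxaloacetate. Cytosolic GOT1 stood at 42.1, 45.6 and 44.5 RPM in controls and 36.0, 37.0 and 35.1 in knockdowns (log2 fold change -0.29, SE 0.053, limma adjusted p 0.0014). Mitochondrial GOT2 differed less, with 114, 113 and 118 RPM in controls and 107, 102 and 104 in knockdowns (log2 fold change -0.14, SE 0.043, limma adjusted p 0.023). Neither gene's groups overlapped.

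PC (ENSG00000173599.9, chromosome 11, 66615704 to 66725847) encodes pyruvate carboxylase, which makes oxaloacetate from pyruvate. It was measured at 21.2, 18.6 and 18.9 RPM in controls and 14.6, 13.7 and 14.8 in knockdowns, the knockdown libraries lying close together at 73.3% of control (log2 fold change -0.44, SE 0.073, limma adjusted p 0.00065). PCK2, mitochondrial phosphoenolpyruvate carboxykinase, which runs from oxaloacetate to phosphoenolpyruvate, stood at 25.1, 22.9 and 26.0 RPM in controls and 22.4, 18.9 and 20.02 in knockdowns, with knockdown replicate 1 just under the lowest control (log2 fold change -0.27, SE 0.078, limma adjusted p 0.017). The mitochondrial malic enzymes ME2 and ME3 turn malate into pyruvate, using NAD and NADP, respectively. ME2 was at 44.0, 45.5 and 47.0 RPM in controls and 38.1, 31.9 and 32.3 in knockdowns, again with knockdown replicate 1 the highest of its group (log2 fold change -0.42, SE 0.071, limma adjusted p 0.00083). ME3 (ENSG00000151376.12, chromosome 11, 86152150 to 86383678) was the scarcer of the pair in RPM, at 10.3, 10.2 and 10.7 in controls and 6.68, 7.21 and 7.41 in knockdowns, and kept 68.2% of its control level (log2 fold change -0.55, SE 0.081, limma adjusted p 0.00033). Per kilobase of transcript the control levels of the pair were similar, 4.83 ± 0.155 RPM per kb for ME2 and 4.51 ± 0.121 for ME3 (SD, n = 3).

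Of these 7 calls, those of GOT2 and PCK2 depended on the processing. For GOT2, limma adjusted p was 0.113 without control replicate 3, 0.076 without knockdown replicate 2 and 0.067 without knockdown replicate 3, with log2 fold changes from -0.14 to -0.12. PCK2 lost its call without control replicate 3 (-0.23, limma adjusted p 0.082), knockdown replicate 2 (-0.22, 0.065) or knockdown replicate 3 (-0.26, 0.060), and after the GC and length correction, where its log2 fold change was -0.11 (limma adjusted p 0.324). The strand setting of the read counting was not given, and 13.2% of GLUD1's exon bases lie opposite exons of FAM35A, which rose from 21.6 ± 1.23 to 31.0 ± 1.92 RPM (SD, n = 3). Likewise 10.5% of PC's exon bases lie opposite LRFN4, which fell from 26.0 ± 5.72 to 16.5 ± 4.09 RPM, so part of these reads is uncertain, as for the 19.3% of GOT1 opposite the clone-named gene RP11-441O15.3 (0.329 ± 0.114 RPM in controls).

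**Figure D3:**
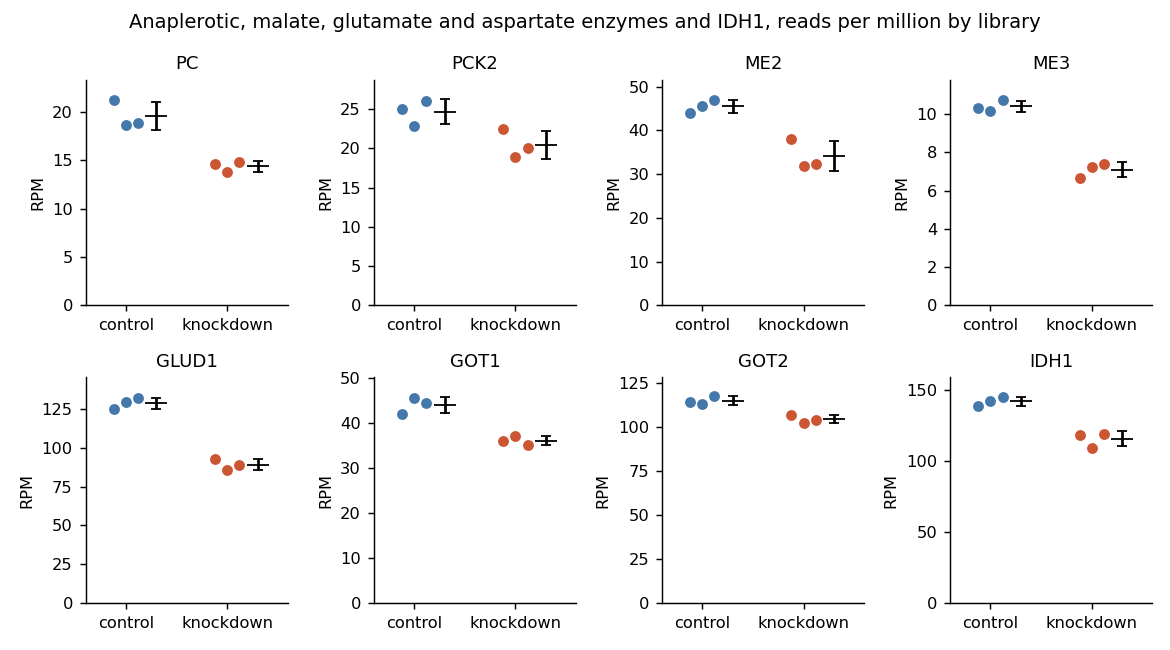
RPM by library (3 control and 3 knockdown libraries, points; mean and SD, bars) for PC, PCK2, ME2, ME3, GLUD1, GOT1, GOT2 and IDH1. In each panel the 3 knockdown libraries lie below the 3 controls, for GLUD1 at 85.4 to 92.8 against 125 to 132 RPM.

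Among the regulators of PDH, 2 of 3 tested kinases were called lower and 1 of 3 phosphatase genes higher. Over all genes tested 41.0% were called, 23.5% lower and 17.5% higher, so the count by itself does not set these regulators apart. PDK2 (ENSG00000005882.7, chromosome 17, 48172101 to 48189516), a broadly expressed PDH kinase, had the largest fall of the 34 genes. Its level was 13.7, 11.8 and 12.2 RPM in controls and 7.53, 7.98 and 8.66 in knockdowns, so that 64.0% of the control mean remained (log2 fold change -0.64, SE 0.089, limma adjusted p 0.00022). PDK1, a kinase induced by hypoxia, stood at 38.4, 33.6 and 36.1 RPM in controls and 31.7, 27.2 and 29.5 in knockdowns (log2 fold change -0.29, SE 0.071, limma adjusted p 0.0072). In both genes every knockdown library was below every control, though for PDK1 the gap between knockdown replicate 1 and control replicate 2 was narrow. The GC and length correction moved PDK1 to -0.45 on the log2 scale. PDK3 was scarce and not called: it was at 0.793, 0.899 and 1.11 RPM in controls and 1.17, 1.07 and 1.21 in knockdowns with overlapping groups (log2 fold change 0.31, 95% interval -0.13 to 0.75). PDK4, a kinase induced by fasting and fatty acids, was at or below the limit of detection, with 0, 0 and 1 reads in controls and 2 in each knockdown library, where a count of 0 allows up to 3 reads. No fold is given for it.

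PDP1 (ENSG00000164951.11), the calcium-stimulated catalytic subunit of PDH phosphatase, was the sole gene of the 34 called higher. It was measured at 35.1, 36.2 and 37.9 RPM in control replicates 1 to 3 and 50.7, 45.9 and 48.1 in knockdown replicates 1 to 3, all knockdown libraries exceeding all controls (log2 fold change 0.41, SE 0.057, limma adjusted p 0.00023). The mean rose to 133% of control. PDP2, the other catalytic subunit, overlapped between the groups and was not called, at 30.7, 31.7 and 31.8 RPM in controls and 31.6, 33.9 and 31.5 in knockdowns (log2 fold change 0.043, 95% interval -0.078 to 0.16). PDPR, the regulatory subunit, was at 47.4, 49.6 and 45.7 RPM in controls and 47.5, 41.5 and 45.6 in knockdowns, with overlapping groups and no call (log2 fold change -0.087, 95% interval -0.22 to 0.048). After the GC and length correction PDPR was called lower, at -0.16 (limma adjusted p 0.018), and 19.6% of its exon bases lie opposite RP11-296I10.3 (5.82 ± 0.730 RPM in controls, 5.76 ± 0.404 in knockdowns). PDPR was -0.042 on the log2 scale after quantile normalization, -0.057 without control replicate 2 and -0.031 without knockdown replicate 2, uncalled in each.

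Summed levels of the kinases and phosphatases lay apart in opposite directions. The 4 PDKs together were at 52.9, 46.3 and 49.5 RPM in controls and 40.5, 36.4 and 39.4 in knockdowns, and the 3 phosphatase genes at 113, 117 and 115 RPM in controls and 129.8, 121 and 125 in knockdowns. Neither sum overlapped between the groups, as was so for 51.1% of all genes tested. The phosphatase sum rose through PDP1 (mean 36.4 to 48.2 RPM), while PDP2 (31.4 to 32.4) and PDPR (47.6 to 44.8) were not called. The kinase sum fell through PDK1 (mean 36.1 to 29.5 RPM) and PDK2 (12.6 to 8.06), while PDK3 (0.935 to 1.15) was not called. The sums thus do not show a change shared by all genes of either kind. Per kilobase of transcript, the ratio of PDK2 to PDP1 was 0.430 ± 0.0479 in controls and 0.208 ± 0.0207 in knockdowns, and that of PDK1 to PDP1 0.299 ± 0.0268 and 0.184 ± 0.00478 (SD, n = 3). These pairs were picked after their values were seen and are given without a test. PDP1's share of the 3 phosphatase genes per kilobase went from 47.2 ± 1.25% to 54.6 ± 0.792%. Within the kinases PDK2 held 54.7 ± 1.47% per kilobase in controls and 46.5 ± 2.75% in knockdowns, and PDK1 38.0 ± 0.139% and 41.2 ± 2.59%. The order of PDK2 over PDK1 rests on a PDK1 transcript of 14193 bases in GENCODE 29, and before division by length PDK1 had more reads. Of PDK2's exon bases 38.6% lie opposite exons of SAMD14, which did not pass the threshold (18.8 ± 3.84 RPM in controls, 19.6 ± 1.83 in knockdowns, log2 fold change 0.077).

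Of the pyruvate carrier pair 1 gene was called lower, beside 23.5% of all genes tested, so the count says little by itself. MPC2 stood at 43.2, 38.0 and 41.5 RPM in controls and 36.3, 35.5 and 34.2 in knockdowns (log2 fold change -0.21, SE 0.060, limma adjusted p 0.016). Its partner MPC1, which forms the carrier with it, was at 12.04, 11.6 and 12.3 RPM in controls and 10.2, 11.3 and 10.4 in knockdowns and also showed no overlap, but did not pass the threshold (log2 fold change -0.17, SE 0.075, limma adjusted p 0.091). MPC1 made up 39.9 ± 1.11% of the pair per kilobase in controls and 40.5 ± 1.55% in knockdowns. The MPC2 call was lost without control replicate 1 (-0.17, limma adjusted p 0.052), control replicate 3 (-0.20, 0.068) or knockdown replicate 3 (-0.19, 0.069), and 22.5% of its exon bases lie opposite DCAF6, which rose from 70.2 ± 1.04 to 81.0 ± 2.83 RPM.

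**Figure D4:**
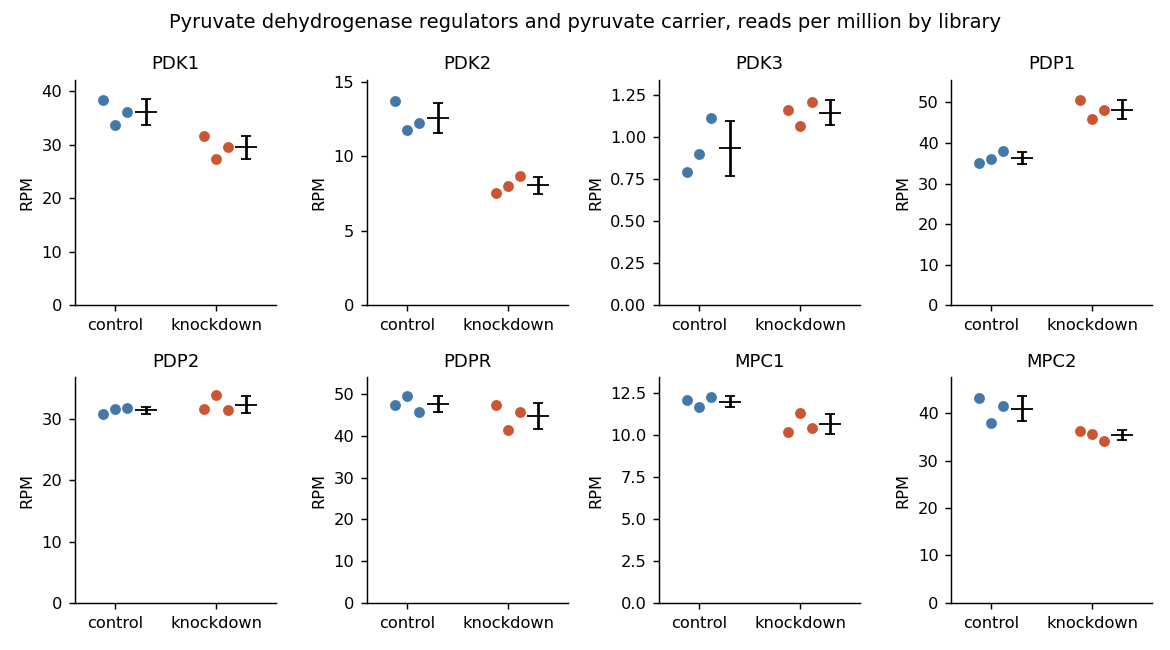
RPM by library (3 per group, points; mean and SD, bars) for PDK1, PDK2, PDK3, PDP1, PDP2, PDPR, MPC1 and MPC2. PDK2 is lower in knockdowns (7.53 to 8.66 against 11.8 to 13.7 RPM) and PDP1 higher (45.9 to 50.7 against 35.1 to 37.9), while PDP2 and PDPR overlap between the groups.

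In the first steps of the cycle, 4 of 7 genes were called lower and 0 higher, beside 23.5% and 17.5% of all genes tested. CS, citrate synthase, which joins acetyl-CoA to oxaloacetate, stood at 165, 176 and 172 RPM in controls and 157, 139 and 141 in knockdowns (log2 fold change -0.23, SE 0.053, limma adjusted p 0.0047). ACO1, the cytosolic aconitase that also acts as iron regulatory protein, was at 226, 229 and 226 RPM in controls and 210.2, 207 and 195 in knockdowns, a small fall to 90.1% of control (log2 fold change -0.15, SE 0.042, limma adjusted p 0.014). The ACO1 call was lost without control replicate 3 (limma adjusted p 0.052) or knockdown replicate 3 (0.071), with log2 fold changes of -0.15 and -0.12, and after quantile normalization (-0.099, 0.104), while the GC and length correction gave -0.23 (0.00021).

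The isocitrate dehydrogenases differed among themselves. IDH1 (ENSG00000138413.9, chromosome 2, 209100951 to 209130798), the cytosolic and peroxisomal NADP-dependent enzyme, fell from 139, 142 and 145 RPM to 118, 109 and 119, with 81.4% of control left (log2 fold change -0.30, SE 0.047, limma adjusted p 0.00051). Its mitochondrial NADP-dependent counterpart IDH2 was at 45.8, 37.1 and 41.9 RPM in controls and 36.7, 43.6 and 41.9 in knockdowns with overlapping groups (log2 fold change -0.028, 95% interval -0.21 to 0.16). For IDH2 the sign changed with the processing. IDH3 is the NAD-dependent enzyme of the cycle itself, built from the catalytic subunit IDH3A and the subunits IDH3B and IDH3G. IDH3A was called lower, at 17.7, 17.9 and 18.7 RPM in controls and 15.2, 13.5 and 13.9 in knockdowns (log2 fold change -0.35, SE 0.070, limma adjusted p 0.0021). IDH3B (64.0, 62.0 and 63.5 against 54.2, 60.7 and 58.7 RPM) and IDH3G (46.6, 42.7 and 45.8 against 39.1, 40.5 and 43.2 RPM) did not pass the threshold, with limma adjusted p-values of 0.078 and 0.079 and log2 fold changes of -0.13 and -0.14. The call was gained by IDH3B without knockdown replicate 2 (-0.16, limma adjusted p 0.049) and by IDH3G without control replicate 2 (-0.18, 0.044), whereas IDH3B was -0.081 without knockdown replicate 1 (limma adjusted p 0.236). After the GC and length correction IDH3B was -0.028 (limma adjusted p 0.650) and IDH3G 0.041 (0.548). Of the exon bases, 38.9% of IDH3A lie opposite CIB2 and ACSBG1, both at most 1.11 RPM on average in controls, and 10.2% of IDH3G lie opposite SSR4, which rose from 78.6 ± 5.55 to 98.8 ± 8.83 RPM.

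Succinyl-CoA ligase pairs the shared subunit SUCLG1 with either SUCLG2, which gives the GTP-forming enzyme, or SUCLA2, which gives the ATP-forming one. SUCLG1 was at 48.5, 52.9 and 55.0 RPM in controls and 42.6, 43.0 and 47.6 in knockdowns (log2 fold change -0.23, SE 0.064, limma adjusted p 0.014), and SUCLG2 at 46.8, 50.4 and 50.1 RPM in controls and 44.8, 41.6 and 44.4 in knockdowns (log2 fold change -0.17, SE 0.054, limma adjusted p 0.028). SUCLA2 did not differ beyond its spread, at 39.8, 40.8 and 44.2 RPM in controls and 42.2, 41.2 and 41.4 in knockdowns (log2 fold change 0.0013, 95% interval -0.12 to 0.12). The ratio of SUCLG2 to SUCLA2 per kilobase was accordingly 1.096, 1.15 and 1.06 in controls and 0.990, 0.941 and 1.00 in knockdowns, a pair given without a test. The SUCLG1 call was lost without control replicate 3 (-0.19, limma adjusted p 0.074). SUCLG2 lost its call without control replicate 2 (-0.15, limma adjusted p 0.081), control replicate 3 (-0.16, 0.110), knockdown replicate 2 (-0.14, 0.09977) or knockdown replicate 3 (-0.18, 0.056), and under median-ratio scaling (-0.14, 0.064) and quantile normalization (-0.13, 0.104).

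Succinate dehydrogenase oxidizes succinate to fumarate and is also complex II of the respiratory chain, with the flavoprotein SDHA, the iron-sulfur subunit SDHB and the membrane anchors SDHC and SDHD. Both subunits of the soluble head were called lower and neither anchor was, but differences between subunits were not tested. The 95% interval of SDHA (-0.27 to -0.077) overlapped those of both anchors, and that of SDHB (-0.45 to -0.23) did not. Of the 6 genes for the complex and its assembly among the 35 genes, 33.3% were called lower, beside 23.5% of all genes tested. SDHA stood at 104, 102 and 104 RPM in controls and 89.3, 95.03 and 90.8 in knockdowns (log2 fold change -0.17, SE 0.044, limma adjusted p 0.0085). SDHB (ENSG00000117118.5, chromosome 1, 17345217 to 17380665) showed the larger fall, from 69.0, 71.1 and 74.1 RPM to 55.4, 55.1 and 58.4 (log2 fold change -0.34, SE 0.049, limma adjusted p 0.00029), and is one of the genes whose promoter is printed above. The anchors stood at 65.9, 68.4 and 67.7 RPM in controls and 68.0, 63.7 and 65.3 in knockdowns for SDHC (log2 fold change -0.037, 95% interval -0.14 to 0.067) and 31.8, 31.8 and 32.2 RPM in controls and 32.2, 29.6 and 29.5 in knockdowns for SDHD (-0.070, -0.19 to 0.054). SDHC was called lower after the GC and length correction (-0.17, limma adjusted p 0.0025) and stood nearer 0 after quantile normalization (-0.0065), median-ratio scaling (-0.0095) or library totals (-0.018) and without knockdown replicate 2 (-0.015), and at -0.063 without knockdown replicate 1. SDHD was -0.043 under median-ratio scaling, -0.023 after quantile normalization and -0.11 without knockdown replicate 1, uncalled in each. For SDHD, 11.2% of exon bases are shared with the same-strand gene ENSG00000255292.2, which was listed with 0 reads. Within each library the SDHB to SDHC ratio per kilobase was 12.3, 12.2 and 12.9 in controls and 9.57, 10.2 and 10.5 in knockdowns, its size resting on an SDHC transcript of 13566 bases, and the pair is given without a test.

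The assembly factors of the complex among the 35 genes, SDHAF1 and SDHAF2, were scarce. SDHAF1, which helps to insert iron-sulfur clusters into SDHB, was at 4.90, 3.33 and 4.89 RPM in controls and 4.08, 4.48 and 4.74 in knockdowns with full overlap (log2 fold change 0.041, 95% interval -0.30 to 0.38), its lowest value being control replicate 2. SDHAF2, needed to attach FAD to SDHA, was at 12.8, 11.6 and 12.6 RPM in controls and 10.3, 10.97 and 10.9 in knockdowns without overlap but just missed the threshold (log2 fold change -0.20, SE 0.076, limma adjusted p 0.055). It passed without control replicate 2 (-0.25, limma adjusted p 0.040), and 30.5% of its exon bases are shared with the same-strand gene RP11-286N22.8 (0.0860 RPM in controls). Outside the 35 genes, the assembly factor SDHAF3 was called lower (log2 fold change -0.34, SE 0.092, limma adjusted p 0.013). SDHAF4 was not called (-0.12, limma adjusted p 0.483). Both were named after their values were seen.

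Fumarase and the malate dehydrogenases were called lower in 3 of 3 genes, beside 23.5% of all genes tested. FH, which hydrates fumarate to malate, was at 60.7, 61.8 and 65.0 RPM in controls and 56.1, 52.5 and 51.6 in knockdowns (log2 fold change -0.23, SE 0.052, limma adjusted p 0.0052). MDH1 and MDH2 convert malate to oxaloacetate in the cytosol and in mitochondria and form part of the malate-aspartate shuttle together with GOT1 and GOT2. MDH1 stood at 167, 173 and 173 RPM in controls and 154, 147 and 150.1 in knockdowns (log2 fold change -0.19, SE 0.041, limma adjusted p 0.0040), MDH2 at 183, 173 and 184 RPM in controls and 153, 165 and 171 in knockdowns (log2 fold change -0.15, SE 0.051, limma adjusted p 0.040). The MDH2 call was the weakest of the 22: it was lost without control replicate 1 (-0.13, limma adjusted p 0.090), control replicate 3 (-0.13, 0.146), knockdown replicate 1 (-0.1001, 0.132) or knockdown replicate 2 (-0.16, 0.066), and with library totals (-0.13, 0.068), median-ratio scaling (-0.12, 0.075), no filter (-0.15, 0.056) or the GC and length correction (-0.096, 0.082).

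**Figure D5:**
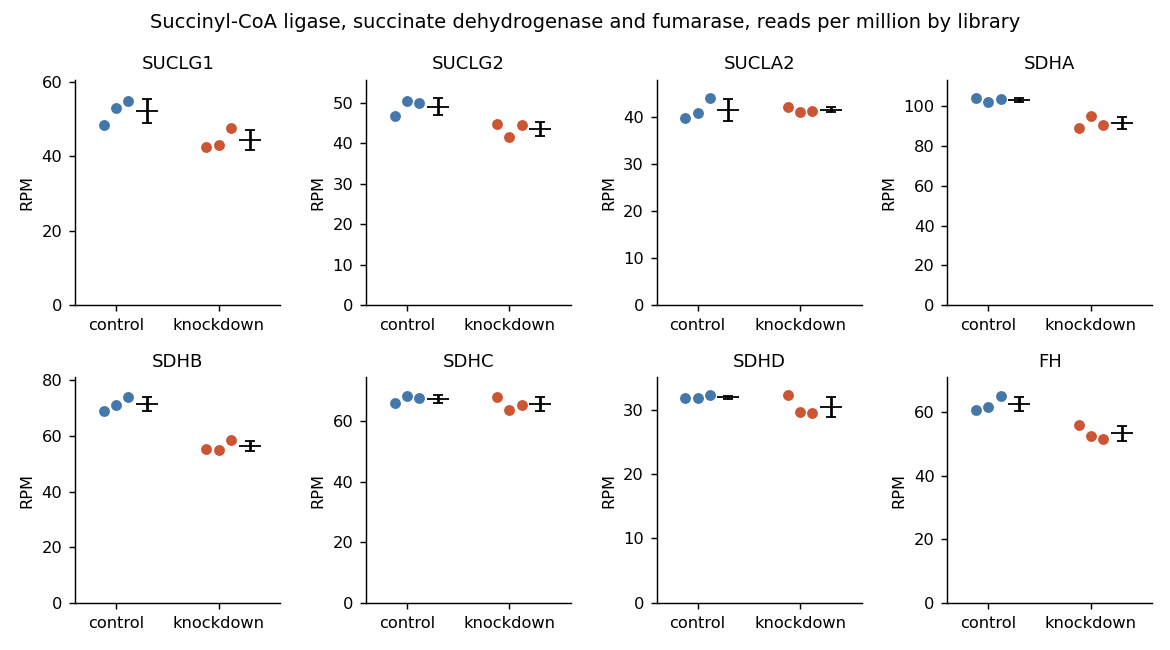
RPM by library (3 per group, points; mean and SD, bars) for succinyl-CoA ligase, succinate dehydrogenase and FH. SDHB is lower in knockdowns (55.1 to 58.4 against 69.0 to 74.1 RPM), whereas SUCLA2, SDHC and SDHD overlap between the groups.

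Of the transcripts themselves, the 2 malate dehydrogenases were the most abundant per length. Mean control levels per kilobase of the principal GENCODE 29 transcript were 104 ± 2.14 RPM per kb for MDH1 and 81.5 ± 2.96 for MDH2 (SD, n = 3), followed by SDHB (61.9 ± 2.20), IDH1 (58.2 ± 1.34) and CS (57.4 ± 1.87). IDH1 and CS overlapped in their library ranges and were not set apart. SDHA (43.3 ± 0.374) and GLUD1 (42.4 ± 1.14) were ranks 7 and 8 in controls, where the library range of GLUD1 overlapped those of SDHA and IDH3B (rank 9). In knockdowns GLUD1 was rank 11, at 29.3 ± 1.22 RPM per kb. Its library range there overlapped those of SUCLG1 (rank 9), FH (rank 10) and IDH3G (rank 12), so its exact rank was not resolved in either group. At the low end stood PDK2 (3.66 ± 0.293), PDK1 (2.54 ± 0.168) and PDK3 (0.487 ± 0.0848). These levels depend on the transcript taken for each gene, since isoforms were not counted separately.

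Copies of these genes in the genome touch some of the values. The table lists 26 pseudogenes named after 8 of the 35 genes (FH, GLUD1, GOT2, SDHA, SDHC, SDHD, SUCLA2 and SUCLG2). Their summed mean reads came to between 1.47% (GLUD1) and 35.1% (SUCLG2) of the reads of the parent gene, with 24.8% for SDHA and 25.9% for SDHC. Processed copies resemble the spliced transcript, and how reads matching several places were counted was not given. With the pseudogene reads added to the parent, an alternative chosen after the data were seen, 22 genes were again called, 21 of them lower. The log2 fold change was then -0.52 for GLUD1, -0.13 for SDHA (limma adjusted p 0.027), -0.18 for SUCLG2 and 0.0019 for SUCLA2.

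Other genes of the same pathways were counted in the same way. A list of 40 further genes held the 2-oxoacid dehydrogenase subunits, glutamine and alanine enzymes, lactate dehydrogenases, acetyl-CoA synthesis, the carriers of citrate, malate, aspartate and glutamate, and related enzymes. Of its 37 tested genes 23 were called lower and 3 higher (62.2% and 8.11%), with a median log2 fold change of -0.22. Over all genes tested the shares were 23.5% and 17.5%, and the median was -0.04. The largest falls were in SLC25A22, a mitochondrial glutamate carrier (41.3 ± 5.60 to 19.5 ± 1.56 RPM, SD, n = 3; log2 fold change -1.07, SE 0.10, limma adjusted p 1.1e-05), and ACSS2, which makes acetyl-CoA from acetate in the cytosol and nucleus (32.4 ± 0.528 to 18.1 ± 0.578 RPM; log2 fold change -0.84, SE 0.057, limma adjusted p 1.6e-06). Among the 3 called higher, the largest rise was in PCCA, a subunit of propionyl-CoA carboxylase, an enzyme that feeds succinyl-CoA (13.4 ± 0.499 to 16.8 ± 0.856 RPM; log2 fold change 0.33, SE 0.070, limma adjusted p 0.0031). Its partner subunit PCCB was lower, at 30.2 ± 0.347 and 23.8 ± 0.387 RPM (log2 fold change -0.34, SE 0.053, limma adjusted p 0.00045), and was named after its value was seen.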

How the data were processed

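PolyA RNA from 6 libraries was read as single 50 bp reads on an Illumina HiSeq 2000, per the labels' protocols. The submitters' processing notes name Bowtie2, featureCounts and the genome build hg19; versions, strand setting, treatment of reads over exon junctions and annotation release were not given in the sources used here. The deposited table holds log2 values: the authors gave log2 CPM with 0.5 added to the reads, relative to an effective library size. This was worked out from the values, since undoing the offset gave whole reads for 100% of them (within a relative 1e-06). RPM here divide those reads by the effective size, without the added 0.5. The table's knockdown columns name the siRNA more fully than the labels, without explanation.

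Limma 3.58.1 (R 4.3.3; lmFit and eBayes with an intensity trend, two-sided, group as sole term) was run on the deposited log2 values of the 19048 genes with a mean of at least 10 normalized reads, with Benjamini-Hochberg adjustment over all of them and a threshold of 0.05. Other settings were added offsets of 1 and 5 reads, other filters, scalings and variance models, voom, thinning to 22117324 reads, GC and length correction, each library left out, and a replicate block. A count of 0 allows 3 reads (0.0596 to 0.134 RPM by library), for counting error only. Per-kilobase levels use the longest principal protein-coding transcript of GENCODE 29, matched by gene ID; 2 older symbols of the further list were matched the same way. The members and lists were chosen with earlier results of these data known. All 35 genes are described, with values in every library for those called without overlap and their partners. Of the further list at most 3 rises and 3 falls are described, besides the assembly factors SDHAF3 and SDHAF4. Replicates of a group differed by more than sampling noise (chi-square per degree of freedom at least 2.87), so each library counted once.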

Additional observations from a re-analysis of the deposited data

How the results depend on the processing

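Across the 20 other fits 15 of the 22 called genes kept their call and direction, namely GLUD1, PC, ME2, ME3, GOT1, PDK1, PDK2, PDP1, IDH1, IDH3A, CS, SDHA, SDHB, FH and MDH1, and 7 lost the call at least once (ACO1, GOT2, MDH2, MPC2, PCK2, SUCLG1 and SUCLG2). None of the 22 reversed in these fits. With a library left out 15 to 23 of the 34 genes were called, the fewest without control replicate 3, the deepest library. After thinning to equal depth 22 were called, and 15 without the variance trend. Of all 19048 genes tested, 7805 were called in the main fit and 5803 to 7330 with a library left out. The fewest were again without control replicate 3. Over all genes, 7278 were called after thinning and 6608 without the trend. All 7 genes that lost the call at least once lost it in the fit without the trend, and GOT2, MDH2 and SUCLG2 with the replicate block. A further requirement of 0.5 or more in absolute log2 fold change kept 3 of these genes (PDK2, ME3 and GLUD1), 5 of the further list and 2643 of all genes, and a threshold of 0.01 on the adjusted p kept 5195 of all genes, both by construction. Some uncalled genes changed sign, with no call where they did. IDH2 was 0.015 under quantile normalization, 0.052 after the GC and length correction and between -0.11 and 0.045 when single libraries were omitted. IDH3G was 0.041 and PDP2 -0.040 after that correction, and PDP2 was -0.0067 after thinning. SUCLA2 was -0.0040 with voom, -0.012 after thinning, -0.044 after the correction and between -0.030 and 0.046 when single libraries were omitted. SDHAF1 then lay between -0.14 and 0.135. For these changes of sign the cause was not tested. Higher genes made up 42.6% of all called genes as reported and 49.4% under quantile normalization, the highest share of any scaling tried.

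The groups share replicate numbers, and no effect shared by equal numbers was seen in the libraries' deviations from their group means. With 3 libraries per group this cannot tell whether the replicates were paired. Equal numbers gave correlations of -0.149, -0.183 and 0.065 between their deviations, and control replicate 1 correlated best with knockdown replicate 2 (0.169). With the replicate block 19 of these genes, 24 of the further list and 6454 of all genes were called, and the lncRNA was at -2.86. The fit without a filter left out genes with 0 reads in every library; it also called PDK4. Depth limits PDK4, with at most 2 reads per library, and PDK3.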
